A study of Mus musculus with 4 samples.

Results

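Epithelial cells of the colon are held together and shaped by the products of the genes described here. They comprise tight junction, desmosome, cadherin and gap junction genes, keratins, genes of the brush border, and the protocadherin, CEACAM and myosin families. They were chosen by a rule on the symbol, made with earlier results of these data known. It took every row of the deposited table whose gene name falls in these families, leaving out the endothelial cadherin Cdh5. The rule gave 77 of the 4121 listed genes. RNA was sequenced from the inflamed distal colon in 2 wild-type and 2 Elf4-/- samples of the C57BL/6 strain, at 8 weeks of age. Both groups were given dextran sulfate sodium (DSS) at 3%, which damages the lining of the colon and brings on colitis, and tissue was collected on day 6. No untreated animals are among these samples, the sources used here do not say how Elf4 was inactivated, and the labels do not say whether each sample was 1 mouse.

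Tight junctions seal the space between neighboring epithelial cells: claudins and occludin span the membrane and the Tjp and cingulin proteins tie them to actin. Cadherins and desmosomes hold cells together through actin and keratin filaments, and connexins form the channels of gap junctions. At the luminal side, actin bundles held by villin and espin and membrane-bound myosins build the microvilli of the brush border, whose tips are linked by cadherin-related proteins.

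Each genotype had 1 FPKM value per gene (fragments scaled to transcript length and to all mapped fragments, so levels of different genes can be set side by side). With no value per sample, no spread, SD or confidence interval can be given, and read depth could not be read from it. Every gene in the table had passed the authors' call, by its values q of at most 0.05 and at least 2-fold. "Rose" and "fell" rest on that call. Where no q is given it was 0.000372 in the authors' deposited table, the smallest it holds, as for 53 of the 77 genes. Elf4, an Ets family transcription factor gene and the one targeted, was 16.4 FPKM in wild-type and 3.51 FPKM in knockout tissue. All 18 fixed markers of colon epithelium were listed, and their levels summed to 16793 FPKM in wild-type and 1750 FPKM in knockout tissue. In bulk tissue, fewer cells of a type and less RNA per cell cannot be told apart.

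Of the 77 genes, 59 fell and 18 rose in the knockout. The share that fell was 76.6%, beside 52.0% of all listed genes, and 48.0% of all listed genes rose. A fall of at least 4-fold, or to a listed 0, was seen for 49 genes of the set and for 24.5% of all listed genes. Of the 49, 24 fell at least 10-fold or to a listed 0, beside 9.17% of all listed genes. Myo3a, the gene of the set that fell to a listed 0, enters both counts without a fold. The median log2 ratio of knockout over wild type, computed after adding 1 to both FPKM values, was -2.17 for the set and -0.76 for all listed genes. After subtracting the table's median, 58 of the 77 were still lower, and the exception was Myo3a.

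The share that fell was larger among genes with more in wild type, in the set as in the whole table. The wild-type level is part of the ratio, so the split is a description and is not independent of the direction. Among the 53 genes with at least 10 FPKM in wild type, 50 fell (94.3%), beside 71.7% of all listed genes at that level. Among the 24 genes under 10 FPKM, 9 fell (37.5%), close to the 32.1% of all listed genes at that level. The 3 abundant genes that rose were Gja1, Myo5a and Cldn5.

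**Figure D1:**
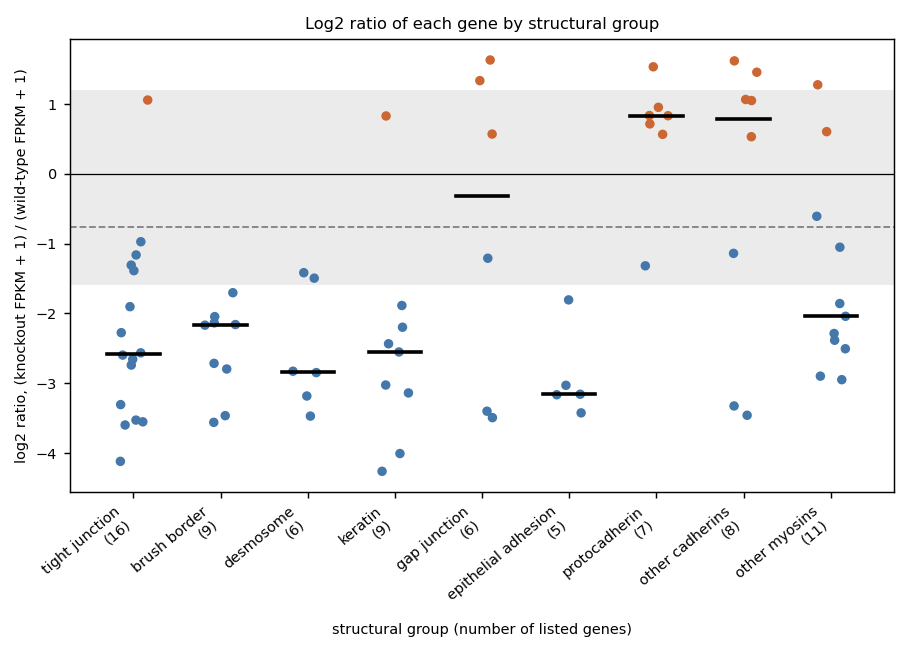
Each point is 1 listed gene, placed by structural group (x axis) and by log2 ratio of knockout over wild type after adding 1 FPKM to both (y axis). Blue points fell and orange points rose. Black bars are group medians, the dashed line is the median of all 4121 listed genes (-0.76) and the gray band their quartiles (-1.58 to 1.19). The medians of 2 mixed groups change sign with the processing, from -0.32 to 0.44 after centring for gap junction genes and from 0.79 to -0.93 with at least 5 FPKM for other cadherins.

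Promoter sequence was matched by symbol for 50 of the 77 genes in a RefSeq table for GRCm38.p6, which holds 62 of their start sites. The windows printed are the 250 bases before the start, 5′ to 3′ on the strand of the gene. Of the genes with an entry, Krt8 had the largest fall on the log2(FPKM + 1) scale and Gja1 the largest rise. Krt18 is shown as the neighbor and filament partner of Krt8, and Myo5a and Myo5c as neighboring genes of 1 family that moved in opposite directions. These last 3 were chosen after their values were seen. Capitals mark CACCTG, an E-box as bound by Snail and Zeb factors, on either strand.
Krt8 (15:102004343-102004592, minus strand): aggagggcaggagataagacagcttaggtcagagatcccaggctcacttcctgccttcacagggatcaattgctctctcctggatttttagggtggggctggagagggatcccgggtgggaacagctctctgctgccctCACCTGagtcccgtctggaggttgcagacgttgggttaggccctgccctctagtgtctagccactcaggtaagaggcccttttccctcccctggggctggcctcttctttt
Krt18 (15:102027966-102028215, plus strand): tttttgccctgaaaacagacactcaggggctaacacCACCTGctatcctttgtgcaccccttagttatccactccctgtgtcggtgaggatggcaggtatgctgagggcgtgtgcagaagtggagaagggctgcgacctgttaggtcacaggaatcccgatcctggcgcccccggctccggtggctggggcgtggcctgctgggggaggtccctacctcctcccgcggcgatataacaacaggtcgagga
Gja1 (10:56377050-56377299, plus strand): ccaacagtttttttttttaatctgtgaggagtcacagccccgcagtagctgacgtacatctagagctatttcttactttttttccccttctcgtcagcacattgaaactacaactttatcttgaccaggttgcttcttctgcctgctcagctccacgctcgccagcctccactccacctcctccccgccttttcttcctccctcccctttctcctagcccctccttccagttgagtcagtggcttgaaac
Myo5a (9:75070956-75071205, plus strand): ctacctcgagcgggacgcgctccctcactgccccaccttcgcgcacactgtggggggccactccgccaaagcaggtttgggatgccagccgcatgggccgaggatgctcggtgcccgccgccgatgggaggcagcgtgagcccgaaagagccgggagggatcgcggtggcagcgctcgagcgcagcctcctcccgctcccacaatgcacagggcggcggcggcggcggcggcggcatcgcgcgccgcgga
Myo5c (9:75231764-75232013, plus strand): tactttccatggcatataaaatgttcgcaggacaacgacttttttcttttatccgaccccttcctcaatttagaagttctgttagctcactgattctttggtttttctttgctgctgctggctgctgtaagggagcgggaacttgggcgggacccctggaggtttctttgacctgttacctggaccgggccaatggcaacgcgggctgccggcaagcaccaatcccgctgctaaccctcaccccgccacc

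The E-box was present once in the printed windows of Krt8, 111 bases before the start, and of Krt18, 214 bases before the start. It was not found in those of Gja1, Myo5a and Myo5c. Of a further pair of neighboring genes searched in the same way, Cldn4, which fell 2.60-fold, had it 14 bases before the start, and Cldn3, which fell 12.04-fold, did not have it. Over windows of 300 bases that include 50 after the start, it was in 24 of the 62 start sites of the set (38.7%). The share was 20.2% of all 32851 promoters in the table and 23.0% of those of listed genes. It was in 23 of 52 start sites of genes that fell and in 1 of 10 of genes that rose. Cdx factors are known to bind TTTATG, which was in 14.5% of the set's sites, 11.9% of all and 8.03% of those of listed genes. Ets factors such as Elf4 bind GGAA. This core was in 90.3% of the set's sites and 96.0% of all, and its longer form CCGGAA, which contains it, in 14.5% and 14.9%. The Grhl letters AACCGG, which can overlap CCGGAA, were in 8.06% and 6.83%, and the Hnf4 letters CAAAGTC in 1.61% and 4.44%. TTTATG and CCGGAA were each in 9 of 52 start sites of genes that fell, AACCGG in 5 and CAAAGTC in 1, and each in 0 of 10 of genes that rose. GGAA was in 49 of 52 and 7 of 10. With only 10 start sites of genes that rose, a lean to genes that fell cannot be read from these splits. Some genes have more than 1 start site, and these splits were not tested. Both strands were searched, and the E-box was added after the data were seen.

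Tight junction genes fell as a group: 15 of the 16 listed were lower, and 6 of them at least 10-fold. Claudin genes encode the strands that set the permeability of the junction. Cldn7 (11:69964779-69967885), the most abundant, fell 11.7-fold from 689 to 58.9 FPKM, and Cldn3 fell 12.04-fold from 410.2 to 34.1 FPKM. Cldn8 (16:88560828-88563183), a sealing claudin gene of the distal colon, fell 19.7-fold from 139 to 7.07 FPKM. Cldn2, whose product forms cation pores, was low in wild type at 7.01 FPKM and fell 25.7-fold to 0.273 FPKM, a level at which the fold is imprecise. Cldn23 fell 5.83-fold from 22.6 to 3.89 FPKM.

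Other claudin genes fell far less. Cldn4 went from 29.4 to 11.3 FPKM (2.60-fold). Cldn12 went from 28.5 to 12.2 FPKM (2.34-fold, authors' deposited table, q = 0.000694). Cldn15, another pore-forming claudin gene, went from 11.4 to 5.30 FPKM (2.14-fold, authors' deposited table, q = 0.0113). Cldn4 and Cldn3 are neighbors on chromosome 5, with 39279 bases between their loci. The ratio of Cldn3 to Cldn4 was 14.0 in wild type and 3.02 in the knockout. Cldn5, the claudin gene of endothelium, rose 2.16-fold from 14.5 to 31.2 FPKM (authors' deposited table, q = 0.00335).

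The other tight junction genes all fell. Marveld3 fell 12.6-fold from 41.0 to 3.25 FPKM. Marveld2, encoding tricellulin of the points where 3 cells meet, fell 9.38-fold from 14.2 to 1.51 FPKM, and its chromosomal neighbor Ocln, the occludin gene, fell 8.34-fold from 28.4 to 3.40 FPKM. The adaptor gene Tjp3 fell 15.3-fold from 53.0 to 3.46 FPKM (authors' deposited table, q = 0.00156). Cgn, the cingulin gene, fell 7.32-fold from 25.5 to 3.49 FPKM. F11r, encoding the adhesion molecule JAM-A, fell 3.80-fold from 161.7 to 42.5 FPKM.

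Further genes known to act at tight junctions were taken from a fixed list of 31 symbols, of which 14 were listed, 8 lower and 6 higher. The share that fell, 57.1%, was close to the 52.0% of all listed genes. Crb3, a polarity gene of the apical membrane, fell from 89.3 to 7.87 FPKM (authors' deposited table, q = 0.00498). Ildr1, for a protein of tricellular contacts, fell from 89.1 to 12.6 FPKM, and Cxadr, encoding a junctional adhesion receptor, fell from 52.1 to 8.70 FPKM. The median log2 ratio of these 14 genes was -1.56. The 6 that rose were Mpdz, Jam2, Jam3, Esam, Amotl1 and Ildr2 (authors' deposited table, q = 0.00873 for Ildr2), named after their values were seen. Jam2, Jam3 and Esam encode adhesion molecules known from endothelium.

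**Figure D2:**
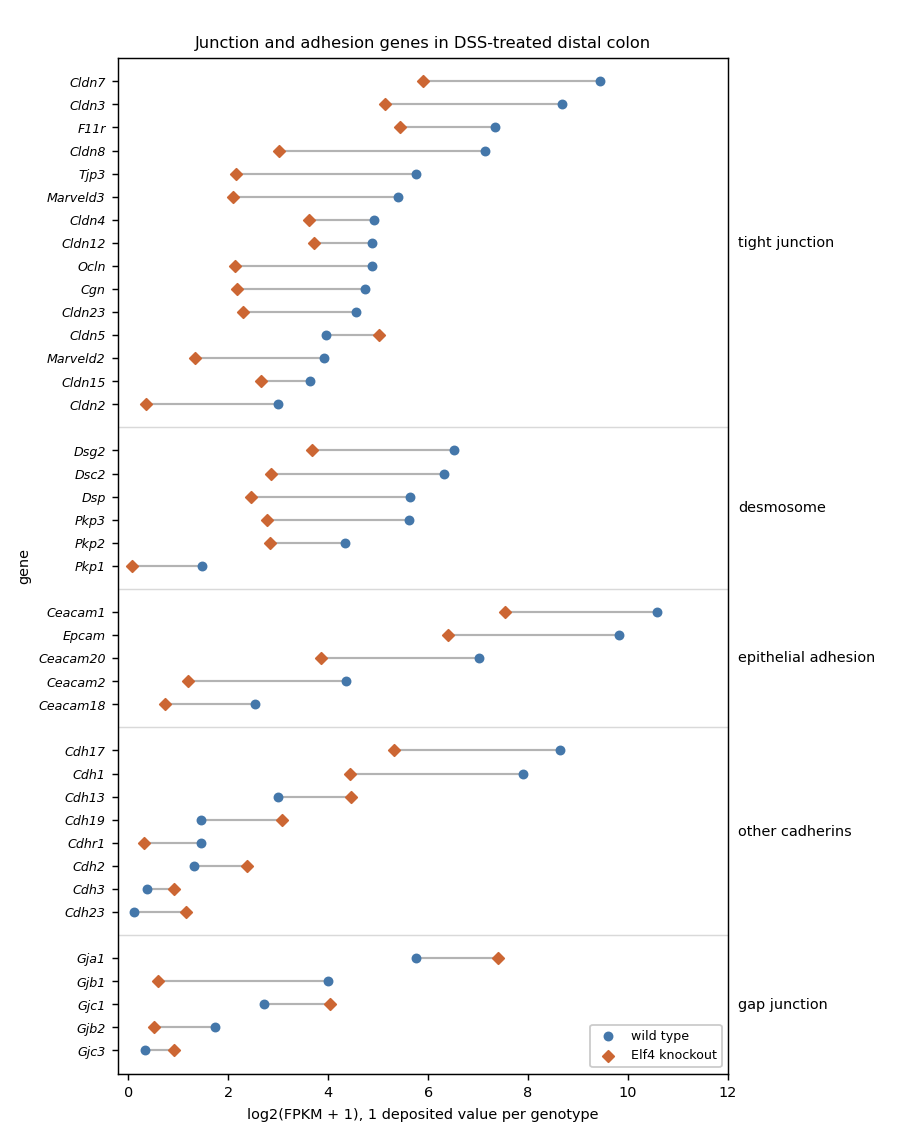
Levels of 39 junction and adhesion genes as log2(FPKM + 1) (x axis), 1 deposited value per genotype, with genes in rows by structural group. Blue circles are wild type and orange diamonds the Elf4 knockout. In desmosome and epithelial adhesion rows every diamond lies left of its circle, while Cldn5, 5 cadherin genes and 3 connexin genes lie to the right.

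The 6 listed desmosome genes all fell. Desmosomes join the keratin filaments of neighboring cells. Their adhesive cadherins are desmogleins and desmocollins, and desmoplakin and the plakophilins link these to keratin. Dsc2 fell 12.7-fold from 79.2 to 6.24 FPKM and Dsg2 fell 7.61-fold from 90.1 to 11.8 FPKM. Dsp, the desmoplakin gene, fell 10.9-fold from 48.4 to 4.45 FPKM, and Pkp3 fell 8.26-fold from 48.0 to 5.80 FPKM. Pkp2 changed least, 3.11-fold from 19.2 to 6.18 FPKM. Pkp1 was at 1.79 FPKM in wild-type and 0.0463 FPKM in knockout tissue (authors' deposited table, q = 0.00238), a level at which the fold is imprecise. Pkp2 was 6.70% of the summed FPKM of these genes in wild type and 17.9% in the knockout.

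Cadherin genes moved in both directions. Cdh1 (8:106603351-106670246), encoding E-cadherin of the adherens junction, fell 11.5-fold from 238 to 20.8 FPKM. Cdh17, for the LI-cadherin of intestinal epithelium, fell 10.2-fold from 398 to 38.8 FPKM. Cdhr1 fell from 1.74 to 0.244 FPKM. The other 5 rose from low levels. Cdh13 went from 6.95 to 20.8 FPKM (q = 0.000998), Cdh2, the N-cadherin gene, from 1.48 to 4.19 FPKM (q = 0.000694) and Cdh23 from 0.0792 to 1.24 FPKM (q = 0.00263), each q as in the authors' deposited table. Cdh19, a cadherin gene known from glia, rose from 1.75 to 7.45 FPKM. Cdh3, the P-cadherin gene next to Cdh1, rose from 0.302 to 0.883 FPKM (authors' deposited table, q = 0.0197). In the knockout, Cdh13 at 20.8 FPKM stood level with Cdh1 at 20.8 FPKM.

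Partners of these adhesion complexes fell too, and all but Evpl by a smaller fold than Cdh1 and Cdh17. Of a fixed list of 24 genes, 11 were listed and all 11 fell, beside 52.0% of all listed genes. Their median fold was 3.22, below the 3.71 of all listed genes that fell. Ctnna1 and Ctnnd1, encoding the catenins that join cadherins to actin and hold them at the membrane, fell 2.06-fold (201.6 to 97.9 FPKM, authors' deposited table, q = 0.000694) and 2.72-fold (98.3 to 36.2 FPKM, authors' deposited table, q = 0.000998). Jup, the plakoglobin gene, fell 3.22-fold from 67.5 to 20.95 FPKM. These 3 were named after their values were seen. The largest changes in the list were Perp, a desmosome-associated gene (219 to 25.2 FPKM), Evpl, the envoplakin gene (5.66 to 0.359 FPKM), and Camsap3 (13.5 to 2.03 FPKM, authors' deposited table, q = 0.0445). Ctnnb1, the beta-catenin gene, was not listed.

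Epcam and the 4 listed CEACAM genes fell. Epcam, encoding an adhesion molecule of simple epithelia, fell 10.8-fold from 898 to 82.8 FPKM. Its product is known to bind claudins, and the ratio of Cldn7 to Epcam was 0.768 in wild type and 0.711 in the knockout. Ceacam1, for an adhesion receptor of epithelium and leukocytes, fell 8.20-fold from 1521 to 185 FPKM. Ceacam20 fell 9.50-fold from 129 to 13.6 FPKM. Ceacam18 fell 7.31-fold from 4.78 to 0.653 FPKM, a level at which the fold is imprecise. Ceacam2 went from 19.5 to 1.29 FPKM (authors' deposited table, q = 0.0461). Ceacam1 and Ceacam2 are near-identical and share 1 locus in the table, so the split of reads between them is uncertain.

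Connexin genes divided by subfamily. Of the beta connexin genes, known from epithelia, Gjb1 fell 29.1-fold from 15.0 to 0.516 FPKM and Gjb2 fell 5.34-fold from 2.31 to 0.433 FPKM (authors' deposited table, q = 0.00184). The knockout values of both genes are low, so the folds are imprecise. Gja1 (10:56377300-56390419), the connexin gene of muscle, fibroblasts and endothelium, rose 3.14-fold from 53.4 to 167.7 FPKM. Gjc1 rose 2.80-fold from 5.54 to 15.5 FPKM, and Gjc3, a glial connexin gene, rose from 0.264 to 0.876 FPKM (authors' deposited table, q = 0.0213).

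Keratins are paired intermediate filament proteins, and Krt8 with Krt18, Krt19 or Krt20 forms the filaments of colon epithelium. Krt8 (15:101996711-102004342), the most abundant gene of the set, fell 16.2-fold from 2335 to 144 FPKM. Krt19 (11:100140810-100148665) fell 19.4-fold from 1672 to 86.3 FPKM, which was the largest fall of the 77 genes on the log2(FPKM + 1) scale. Krt18, the type I partner of Krt8 and its neighbor, fell 9.17-fold from 194.7 to 21.2 FPKM. Krt20, a keratin gene of differentiated surface cells, fell 8.23-fold from 624 to 75.8 FPKM. The ratio of Krt20 to Krt19 was 0.373 in wild type and 0.878 in the knockout.

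The less abundant keratin genes mostly followed. Krt7 fell from 20.3 to 2.94 FPKM, Krt36 from 8.09 to 0.552 FPKM and Krt84 from 3.54 to 0.229 FPKM (authors' deposited table, q = 0.000694 for Krt84). Krt80 rose from 1.30 to 3.08 FPKM (authors' deposited table, q = 0.0403). The pseudogene Krt8-ps, at 5.83 and 0.491 FPKM (authors' deposited table, q = 0.00335), shares sequence with Krt8, so its value is uncertain. The summed level of the 8 keratin genes without it was 4858 FPKM in wild-type and 334 FPKM in knockout tissue. Of 15 fixed markers of squamous epithelium, which include Krt5, Krt14 and Krt13, 0 were listed.

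Of 16 intermediate filament genes other than keratins, 5 were listed. Vim, the vimentin gene of mesenchymal cells and leukocytes, rose 2.12-fold from 208.9 to 442.9 FPKM (authors' deposited table, q = 0.00156). Prph, a filament gene of neurons, rose from 13.3 to 42.2 FPKM and Nes, the nestin gene, from 1.19 to 3.90 FPKM. Bfsp1 fell from 5.68 to 0.620 FPKM and the lamin gene Lmnb2 from 8.71 to 2.86 FPKM. In wild type the level of Krt8 was above that of Vim, and in the knockout it was below it. Vim and Nes were named after their values were seen.

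**Figure D3:**
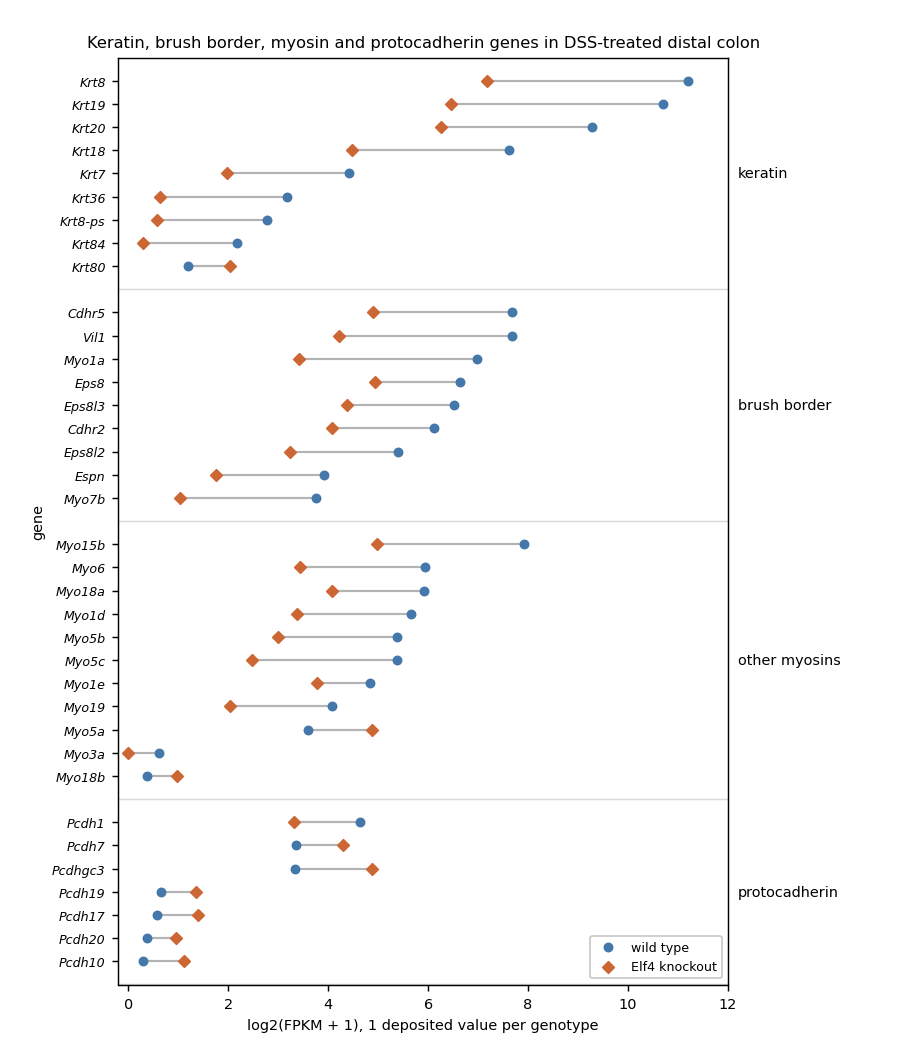
Levels of the 36 keratin, brush border, other myosin and protocadherin genes as log2(FPKM + 1) (x axis), 1 deposited value per genotype, with genes in rows by structural group. Blue circles are wild type and orange diamonds the Elf4 knockout. All 9 brush border genes are lower in the knockout, and 6 of 7 protocadherin genes are higher.

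All 9 listed brush border genes fell, between 3.33-fold and 12.9-fold. Myo1a (10:127705170-127720887), encoding the myosin that ties the microvillar membrane to its actin core, fell 12.9-fold from 124.6 to 9.65 FPKM. Vil1, the villin gene, fell 11.6-fold from 204 to 17.6 FPKM. The myosin gene Myo7b, whose product acts at the microvillar tips, fell 11.8-fold from 12.5 to 1.06 FPKM. Espn, for the actin bundler espin, fell 5.97-fold from 14.1 to 2.37 FPKM. Cdhr5 and Cdhr2, whose products link the tips of microvilli, fell 7.15-fold (205 to 28.7 FPKM) and 4.32-fold (68.4 to 15.8 FPKM). The ratio of Cdhr5 to Cdhr2 was 3.00 in wild type and 1.81 in the knockout.

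Genes of the Eps8 family, which regulate actin filament ends, were among the brush border genes that fell by a smaller fold. Eps8 went from 98.4 to 29.6 FPKM (3.33-fold), Eps8l3 from 90.1 to 19.8 FPKM (4.56-fold) and Eps8l2 from 41.3 to 8.47 FPKM (4.87-fold). Eps8 is also expressed outside epithelium.

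Of 41 further genes of the brush border and its transport routes, the table held 17, of which 15 fell and 2 rose (median log2 ratio -2.67). Mal2, for apical transport, fell 17.98-fold from 169.9 to 9.45 FPKM. Calml4 fell 14.4-fold from 150.3 to 10.5 FPKM and Ush1c fell 12.7-fold from 44.9 to 3.52 FPKM. Their products belong, with those of Cdhr2, Cdhr5, Anks4b and Myo7b, to the complex that links microvillar tips. Anks4b fell from 40.1 to 3.36 FPKM, so that all 6 of these genes were lower. Of the membrane linkers, Ezr, the ezrin gene of microvilli, fell 3.79-fold from 137 to 36.2 FPKM, while its relative Msn, the moesin gene of leukocytes and endothelium, rose 2.27-fold from 90.3 to 205 FPKM. Myh10 also rose, from 4.40 to 9.36 FPKM (authors' deposited table, q = 0.0210). Anks4b, Ezr, Msn and Myh10 were named after their values were seen, and Myo5b and Cdhr1 are in both this list and the set.

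Of the 11 other myosin genes, 9 fell. Myo15b, the most abundant, fell 7.94-fold from 241 to 30.4 FPKM. Myo5c fell 8.87-fold from 40.4 to 4.55 FPKM, and Myo5b, whose product carries recycling vesicles to the apical membrane, fell 5.82-fold from 40.7 to 6.997 FPKM. Myo6, for a motor of endocytosis at the base of microvilli, fell 6.15-fold from 60.6 to 9.84 FPKM. Myo1d fell 5.29-fold from 49.4 to 9.33 FPKM and Myo19, for a mitochondrial motor, fell 5.12-fold from 15.9 to 3.10 FPKM. Myo18a and Myo1e changed less, from 59.8 to 15.8 FPKM (authors' deposited table, q = 0.0310) and from 27.5 to 12.7 FPKM. Myo3a was 0.523 FPKM in wild type and listed at 0 in the knockout (authors' deposited table, q = 0.0423). Such a 0 may stand for an estimate that failed, and no fold is given.

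Myo5a rose 2.55-fold from 11.05 to 28.2 FPKM (authors' deposited table, q = 0.00773), although Myo5c, with 8331 bases between their loci, fell. Myo5a is known from neurons, pigment cells and leukocytes, and Myo5c from epithelia. Myo18b rose from 0.293 to 0.966 FPKM (authors' deposited table, q = 0.0254). Across the set, 12 pairs of genes lay within 200000 bases of each other. Of these, 8 pairs moved in the same direction and 4 in opposite directions. The opposite pairs were Myo5a with Myo5c, Cdh3 with Cdh1, and Krt80 with Krt7 and with Krt84. As 76.6% of the set fell, pairs that share a direction are common at any distance, and some genes are in more than 1 pair. Whether neighbors matched more often than other pairs was not tested.

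Protocadherins are adhesion molecules best known from neurons. Of 7 listed genes, 6 rose. The exception was Pcdh1, known from epithelia, which fell 2.66-fold from 24.0 to 9.02 FPKM. Pcdhgc3 went from 9.15 to 28.4 FPKM (q = 0.00453) and Pcdh7 from 9.21 to 18.8 FPKM (q = 0.00406), with q as in the authors' deposited table. The locus given for Pcdhgc3 spans a cluster of genes that share exons, so its value is uncertain. The others were at low levels. Pcdh17 rose from 0.480 to 1.64 FPKM. Pcdh19 went from 0.565 to 1.57 FPKM (q = 0.00792), Pcdh10 from 0.220 to 1.18 FPKM (q = 0.00873) and Pcdh20 from 0.304 to 0.931 FPKM (q = 0.0217), each q as in the authors' deposited table.

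The listed markers of endothelium, fibroblasts and enteric neurons and glia were higher in the knockout. Their median rises were 2.80-fold, 2.86-fold and 3.18-fold, in that order, beside 2.91-fold for all listed genes that rose. FPKM is scaled to all mapped fragments, so these rises and the falls of abundant genes are not independent. Of 8 listed immune markers, 5 were higher and 3 lower. For endothelium, 11 of 14 fixed markers were listed and 11 were higher, with a summed level of 138 FPKM in wild-type and 428 FPKM in knockout tissue. Flt1 went from 4.79 to 25.1 FPKM, Emcn from 8.12 to 39.7 FPKM and Lyve1 from 22.2 to 96.6 FPKM. This list includes Cldn5. For fibroblasts, 8 of 12 were listed and 8 were higher (summed 1232 and 4566 FPKM), led by Dcn, Pdgfrb and Col6a1. For enteric neurons and glia, 7 of 11 were listed and 7 were higher (summed 113.9 and 554 FPKM), led by Vip and Uchl1. Of 10 smooth muscle markers 0 were listed. The part of these cells in the rises of Cldn5, Gja1, Gjc3, Cdh2, Cdh13, Cdh19 and the protocadherin genes was not tested.

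The 58 genes that fell and kept a knockout value above 0 were set beside the 18 colon epithelium markers, none of which is in the set. Both had passed the call of at least 2-fold, and all 18 markers fell at least 4-fold. The marker list was chosen with earlier results of these data known. The markers are thus no independent yardstick, and the comparison is a description. The markers kept a median of 8.42% of their wild-type level, between 3.62% for Agr2 and 24.3% for Car1. The 58 genes kept a median of 12.1%, with 43 above the median of the markers and 15 below it. Cdh1 at 8.72%, Vil1 at 8.62%, Cldn7 at 8.54%, Myo7b at 8.47% and Epcam at 9.22% lay close to it.

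Some genes lay outside the range of the markers. Those with more left included Cldn15 (46.7%), Myo1e (46.4%), Cldn12 (42.8%), Cldn4 (38.4%), Pcdh1 (37.6%), Pkp2 (32.2%), Eps8 (30.0%), Myo18a (26.4%) and F11r (26.3%). Those with less left included Pkp1 (2.59%) and Gjb1 (3.44%), both under 1 FPKM in the knockout. The 4 abundant keratin genes kept between 5.16% (Krt19) and 12.1% (Krt20). Without values per sample, none of these differences between genes could be tested.

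**Figure D4:**
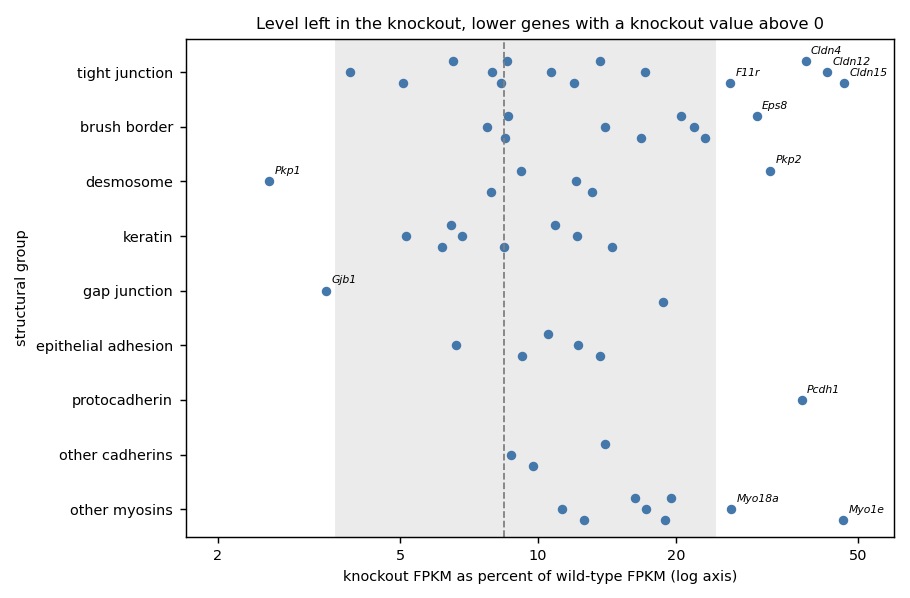
Knockout FPKM as a percent of wild-type FPKM (x axis, log scale) for 56 genes that fell and were above 0 in the knockout, by structural group (y axis). The gray band is the range of the 18 colon epithelium markers (3.62% to 24.3%) and the dashed line their median (8.42%). Named genes lie outside the band.

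Because members of a family fell unequally or moved in opposite directions, its make-up by FPKM differed between genotypes. Cldn7, Cldn3 and Cldn8 were 51.0%, 30.3% and 10.3% of the summed FPKM of the 9 listed claudin genes in wild type, and 35.9%, 20.8% and 4.31% in the knockout. Cldn5 made up 1.07% in wild type and 19.0% in the knockout. Cldn4 and Cldn12 went from 2.17% and 2.11% to 6.87% and 7.43%. Among the 8 keratin genes, Krt19 went from 34.4% to 25.8% and Krt20 from 12.8% to 22.7%, while Krt8 held the largest share in both, 48.1% and 43.2%. Cdh1 and Cdh17 made up 36.8% and 61.5% of the 7 numbered cadherin genes in wild type, and 22.1% and 41.2% in the knockout. These shares cover listed genes only.

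**Figure D5:**
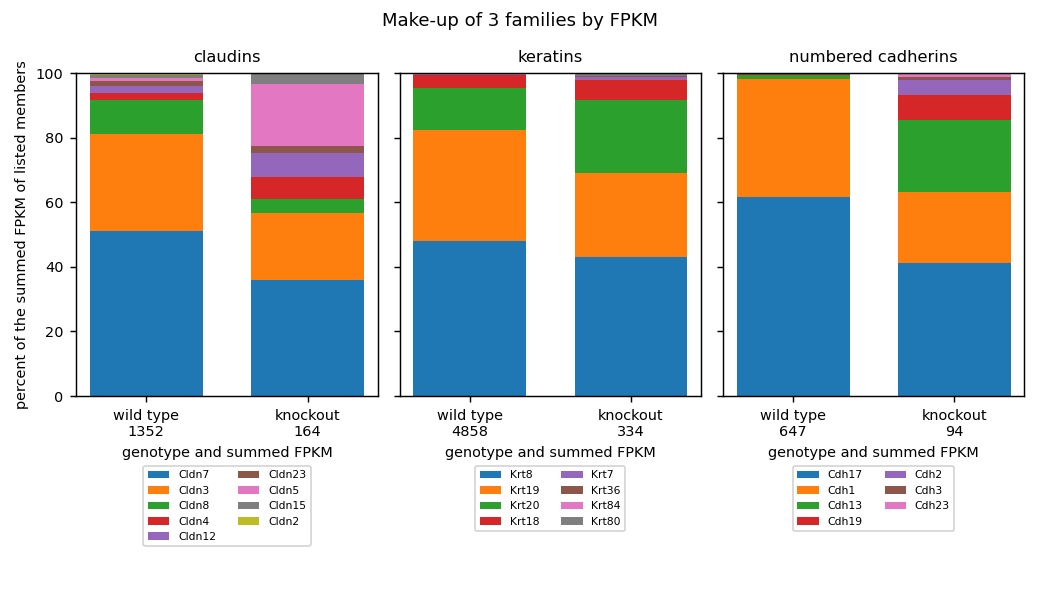
Share of each listed gene in the summed FPKM of its family (y axis, percent) for claudins, keratins without the pseudogene and numbered cadherins, in wild type and knockout (x axis, with the summed FPKM under each bar). Cldn5 takes 1.07% of the claudin bar in wild type and 19.0% in the knockout.

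Only part of each family was listed. Of protein-coding genes in GENCODE M21 with matching symbols, 16 of 45 tight junction genes, 9 of 33 claudin genes, 9 of 12 brush border genes, 8 of 53 keratin genes and 7 of 68 protocadherin genes were in the table. The rest are not analysed here. For 16 genes the locus in the table is more than 1000 bases wider than the annotated gene, so their values may include reads of neighbors. These are Vil1, Eps8l2, Eps8l3, Dsg2, Ceacam1, Ceacam2, Krt8-ps, Myo15b, Myo19, Pcdh1, Pcdh7, Pcdh10, Pcdh19, Pcdhgc3, Tjp3 and Cldn3.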

How the data were processed

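Per the file headers, the deposited values are FPKM, 1 per gene and genotype, in which the authors pooled the samples by a step that the sources used here do not describe. Its p-value and q-value columns are the authors' own comparison. The submitters' processing notes name Bowtie 0.12.2, Cufflinks 2.2.1 and mm8, with no roles. The coordinates matched GENCODE M21 on GRCm38 for 77 of 77 genes by chromosome, with 63 starts equal after adding 1 and 53 ends equal, and are printed on that build counting from 1.

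Genes were selected by symbol and assigned to 9 structural groups by the family part of the symbol. The members, the gene lists and the groups were chosen with earlier results of these data known. Log2 ratios used a pseudocount of 1, and folds used FPKM alone. No test between genotypes could be run on 1 value each. Named were every gene in groups of up to 8, and in larger groups the 6 that changed most (1 FPKM or more in either genotype), the most abundant gene and those against the majority, and in each list the 3 largest changes, or all where up to 4 were listed. The remaining genes of the set are also given, chosen outside this rule, apart from a few that enter the counts and are not reported here. The computation was tested on simulated data. Results were recomputed with q of at most 0.01, at least 4-fold, minimums of 1 and 5 FPKM, and pseudocounts of 0.1 and 0. Further settings were centring on the table's median, and leaving out protocadherins and the 2 genes that share a locus, Ceacam1 and Ceacam2. Other genes with a wide locus stayed in. Python 3.11.15, numpy 2.4.6, pandas 2.3.3 and matplotlib 3.10.9 were used.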

Additional observations from a re-analysis of the deposited data

How the results depend on the processing

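No paired analysis was possible because samples of a genotype share a single value. Leaving out each replicate was not run for that reason, so the weight of any 1 sample cannot be given, nor can the depth. Medians that shifted by more than 1.5-fold are named. The count of 59 genes that fell became 55 of 68 with q of at most 0.01 and 49 of 52 with at least 4-fold (Myo3a, listed at 0, kept). It became 58 of 72 with at least 1 FPKM, 53 of 61 with at least 5 FPKM and 56 of 68 without protocadherins and shared loci. After centring, an alternative chosen after the data were seen, it was 58 of 77. With at least 4-fold the share that fell was 94.2% in the set and 65.5% of all listed genes. Both shares were larger than without this filter, so part of the set's increase was shared by the whole table. Of all listed genes, 52.7% fell with q of at most 0.01, 52.6% with at least 1 FPKM and 54.6% with at least 5 FPKM. The shares of the set at these settings were 80.9%, 80.6% and 86.9%. Centring on the table's median of -0.76 changed, by construction, the median log2 ratio of the set to -1.41, of tight junction genes to -1.82, brush border to -1.41, desmosome to -2.08, keratin to -1.79, epithelial adhesion to -2.40, other myosins to -1.28, protocadherins to 1.59 and other cadherins to 1.55, and turned that of gap junction genes from -0.32 to 0.44. Keeping genes with at least 5 FPKM left 4 other cadherins, whose median went from 0.79 to -0.93, and 4 gap junction genes, with a median of -1.03. A pseudocount of 0.1 moved the keratin median to -3.33. It also moved the log2 ratios of 21 of the 77 genes by over 1.5-fold, all to a larger size and none to the other direction; each was at 1.29 FPKM or less in its lower genotype.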

Other observations

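Transcription factors and splicing regulators of epithelial identity were lower together with the genes above. Of a fixed list of 25, all 21 that the table held fell (median log2 ratio -2.95), where the median of all listed genes was -0.76. Cdx1, a homeobox factor of intestinal identity, fell from 103.9 to 6.25 FPKM. Hnf4a, a nuclear receptor of intestinal epithelium, fell from 142 to 8.93 FPKM, and Isx, another intestinal homeobox gene, fell from 32.5 to 1.67 FPKM. Grhl2, which regulates junction genes and was picked with its values known, fell from 4.19 to 0.362 FPKM. Cdx1, Cdx2, Hnf4a, Elf3 and Spdef are also among the colon epithelium markers.

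Of 13 factors linked to the epithelial-mesenchymal transition, 8 were listed and 8 rose, with a median log2 ratio of 1.22. The Twist2 gene rose from 2.34 to 10.3 FPKM (q = 0.000694), Snai1 from 6.89 to 23.2 FPKM and Twist1 from 3.74 to 10.7 FPKM (q = 0.000998), with q as in the authors' deposited table. These factors are also expressed in fibroblasts, whose 8 listed markers rose by a median of 2.86-fold, beside 2.79-fold for these 8 genes. Both values were near the median rise of all listed genes that rose, 2.91-fold. The part of fibroblasts in these values was not tested.

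Of 14 immune markers, 8 were listed, 5 higher and 3 lower. S100a8, S100a9 and Itgam, of neutrophils and other myeloid cells, rose from 101.4 to 1202 FPKM, from 178 to 1888 FPKM and from 14.1 to 90.5 FPKM. The 3 that fell were the T cell genes Cd3g (22.1 to 5.16 FPKM) and Cd3e (13.3 to 4.34 FPKM) and the B cell gene Ms4a1 (18.8 to 5.62 FPKM), all named after their values were seen. Ptprc, the gene of the leukocyte surface protein CD45, was not listed.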
